A study of Mus musculus with 4 samples.

Results

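The region described is the 100 kb on each side of the middle of the Tnfaip3 contact profile, mouse chromosome 10 from 19107921 to 19307921 in mm9 coordinates. Its limits are set by position and not by contact values, and it holds 201 of the 2001 positions of the profile, spaced 1000 bp apart, out of 4002 positions for both viewpoints of the series. The profile came from 4C-seq, in which cross-linked chromatin is cut, ligated and amplified from 1 chosen fragment, the viewpoint, so that the sequenced partners show which DNA lay near it. The Tnfaip3 profile was measured in 1 library of mouse embryonic stem cells (ESC, line 46c, grown without feeders and with LIF). It was also measured in 1 library of RAW 264.7 cells, a mouse macrophage-like cell line, whose sample title says macrophage with KLA. KLA is a lipid A of bacterial lipopolysaccharide that activates the receptor TLR4. The treatment text of the labels gives KLA only for peritoneal macrophages, so its use and time in the RAW 264.7 library rest on the title alone. RAW 264.7 cells without KLA were not analysed here, so the cell type cannot be told apart from the KLA treatment. Per the labels, 1% formaldehyde fixed the chromatin of both, HindII made the first cut and DpnII the next.

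Tnfaip3 encodes A20, a ubiquitin-editing enzyme that limits NF-κB signalling. It is itself switched on by NF-κB in macrophages given lipopolysaccharide, and so forms a negative feedback loop. Distal enhancers can act on such genes by coming close to their promoters, and contact profiles such as these are used to look for that closeness. In 4C-seq, contact generally falls with distance from the viewpoint, and peaks above this fall are read as candidate loops. In the RefSeq annotation of GRCm38.p6 the protein-coding genes around Tnfaip3 on chromosome 10 are, in order, Perp, a p53 target of cell adhesion, Tnfaip3, Olig3, a transcription factor of the nervous system, and Ifngr1, a subunit of the interferon gamma receptor. That annotation is of another build than the profiles, so no gene, promoter or enhancer was placed inside the 201 positions, and the sources used here do not give the distance of the middle from Tnfaip3. No genome of the profiles' build was used, so no sequence is shown.

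The deposited contact signal is given at each position for windows of 2 to 49 kb. Each library was divided by its own median at the same width 500 to 900 kb from the middle, called the far level, so that 1 means contact as found far away. In 10 kb windows 198 of the 201 positions had a value above 0. The remaining 3, at 52 to 54 kb on the side of higher coordinates, were listed at 0 in both libraries. Each group had 1 library and read depth is unknown, so the values have no replicate error, no test was possible and no p-value is given. Positions 1 kb apart share most of a 10 kb window and are not replicates.

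Contact within 100 kb was above the far level along most of the region in both cell types. The median was 1.24 times the far level in ESC, with a range from 0.489 to 2.51. In RAW 264.7 cells it was 1.27 times, with a range from 0.508 to 2.46. Contact lay above the far level at 158 of 198 positions in ESC and at 157 in RAW 264.7 cells. It reached 1.5 times the far level at 56 positions in ESC, or 28.3%, against 7.75% of the 1988 positions of the whole ESC profile. RAW 264.7 cells did so at 53 positions, or 26.8%, against 7.24% of the whole profile. At 500 to 900 kb the same threshold was passed by 4.61% of positions in ESC and 3.12% in RAW 264.7 cells. At the lower edge, contact in ESC was 0.731 just inside, at 100 kb, and 0.654 just outside, 1 kb further. At the upper edge it was 1.86 inside and 1.70 outside, so the edge cuts through a stretch of high contact.

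**Figure D1:**
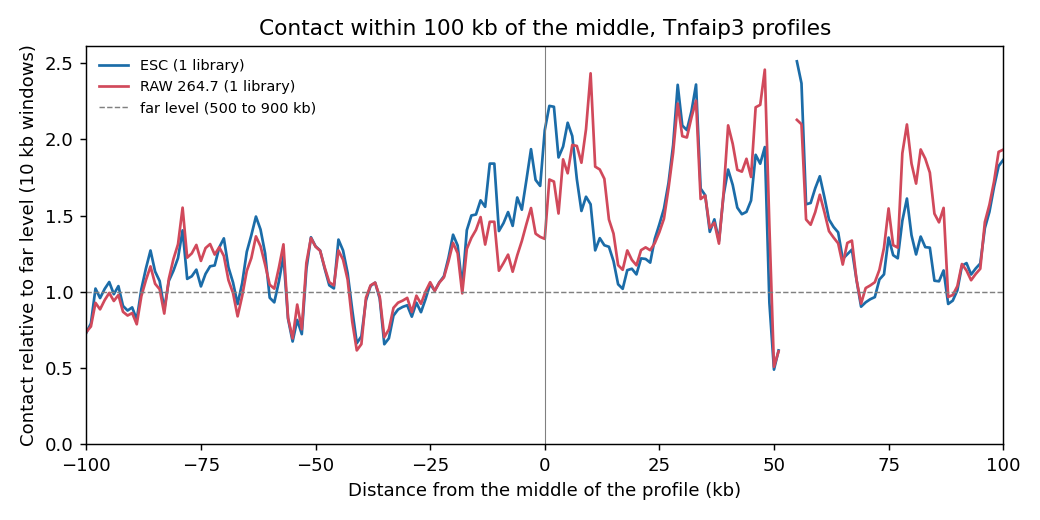
Contact in 10 kb windows (vertical axis, relative to the far level) against distance from the profile's middle in kb (horizontal axis) for the 1 ESC library and the 1 RAW 264.7 library, with the far level as a dashed line. The lines lie above 1 at 158 and 157 of 198 positions, stay within 25% of each other on the lower side beyond 25 kb, and break at 52 to 54 kb, where both libraries were listed at 0.

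The contact did not fall evenly from the middle. In ESC the median was 1.73 times the far level within 10 kb of the middle, 1.2 times at 10 to 25 kb, 1.28 times at 25 to 50 kb, 1.17 times at 50 to 75 kb and 1.14 times at 75 to 100 kb. The same bands in RAW 264.7 cells gave 1.51, 1.29, 1.28, 1.22 and 1.16 times. Beyond the region, at 100 to 200 kb, the medians were 1.02 in ESC and 1.1 in RAW 264.7 cells. Contact within 25 kb was 1.27 times that at 75 to 100 kb in ESC against 1.16 times in RAW 264.7 cells. With distances taken from the highest 2 kb window over both libraries, 29 kb above the middle, these ratios were 1.44 in ESC and 1.48 in RAW 264.7 cells, so the order of the libraries turned.

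Summed over the region, the side of higher coordinates had more contact than the lower side, but not in every band of distance. It held 55.4% of the contact within 100 kb in ESC and 58% in RAW 264.7 cells. The gap was widest at 25 to 50 kb, where the median was 1.68 times the far level on the higher side and 0.944 times on the lower side in ESC. In RAW 264.7 cells it was 1.8 times on the higher side and 0.968 times on the lower side. At 10 to 25 kb the order was the other way in ESC, with 1.22 on the higher side and 1.37 on the lower side, while RAW 264.7 cells had 1.29 and 1.28. At 75 to 100 kb the medians in ESC were 1.24 on the higher side and 1.04 on the lower side, and in RAW 264.7 cells 1.51 and 0.979. The sides depend on where the viewpoint lies: taken from that highest 2 kb window, the higher side held 50.5% in ESC and 53.5% in RAW 264.7 cells.

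The highest stretches of contact in 10 kb windows were in part shared. In ESC the 5 highest local maxima lay at 55 kb (19262921), 33 kb (19240921), 1 kb (19208921) and 100 kb (19307921) above the middle and 12 kb (19195921) below it. In RAW 264.7 cells they lay at 48 kb (19255921), 10 kb (19217921), 33 kb (19240921), 79 kb (19286921) and 100 kb (19307921) above the middle. The maximum at 33 kb had 2.36 times the far level in ESC against 2.25 times in RAW 264.7 cells. The one at 100 kb had 1.86 times in ESC against 1.93 times in RAW 264.7 cells. These 2 maxima were named in both libraries. In RAW 264.7 cells contact at 55 kb was 2.13 times the far level, above the maxima at 79 and 100 kb. It was not named because maxima had to lie 10 kb apart and the one at 48 kb was higher. In ESC contact at 48 kb was 1.95 times the far level, against 2.46 times in RAW 264.7 cells. This was above the ESC maxima 100 kb above and 12 kb below the middle. It was not named in ESC because the maximum at 55 kb was higher and lay too near. The lowest local minimum of both libraries was at 50 kb (19257921), with 0.489 times in ESC against 0.508 times in RAW 264.7 cells. Contact was also low 35 kb below the middle (19172921), with 0.656 times in ESC against 0.703 times in RAW 264.7 cells. The minimum that RAW 264.7 cells had instead, 41 kb below the middle (19166921), had 0.616 times there and 0.663 times in ESC.

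The highest 10 kb window of ESC drew its value from a small part of its length. At 55 kb contact was 2.51 times the far level in ESC against 2.13 times in RAW 264.7 cells, yet every 2 kb window from 48 to 58 kb was listed at 0 in both libraries, 11 windows in a row. The highest 10 kb window of RAW 264.7 cells, at 48 kb with 2.46 times the far level, was centred at the lower end of this stretch. The lowest minimum, at 50 kb, lay near the lower end of the same stretch. A window listed at 0 can hold no fragment end or only ends with a value of 0. The 2 kb windows were listed at 0 at 19 of the 201 positions, or 9.45%, against 7.40% over the whole profile and 5.61% at 500 to 900 kb.

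Cut into 20 tiles of 10 kb that do not overlap, the region was above the far level in 18 tiles in ESC and in 17 in RAW 264.7 cells. Both libraries were below it in the tiles centred 55 and 35 kb below the middle. In the tile centred 55 kb below, contact was 0.674 times the far level in ESC against 0.694 times in RAW 264.7 cells, and in that centred 35 kb below it was 0.656 and 0.703 times. The tile just above the middle, 19207921 to 19217920, had 2.11 times in ESC against 1.78 times in RAW 264.7 cells. Its neighbour just below, 19197921 to 19207920, had 1.54 times in ESC against 1.33 times in RAW 264.7 cells. The tiles centred 35 and 45 kb above the middle had 1.63 and 1.60 times in ESC and 1.63 and 1.75 times in RAW 264.7 cells. The 2 libraries were within 25% of each other, taking the higher over the lower, in 19 of the 20 tiles. The exception was 19287921 to 19297920, centred 85 kb above the middle, with 1.07 times in ESC against 1.51 times in RAW 264.7 cells. The ESC value there was above 61.1% of the positions at 500 to 900 kb, and the RAW 264.7 value above 97.1% of them.

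**Figure D2:**
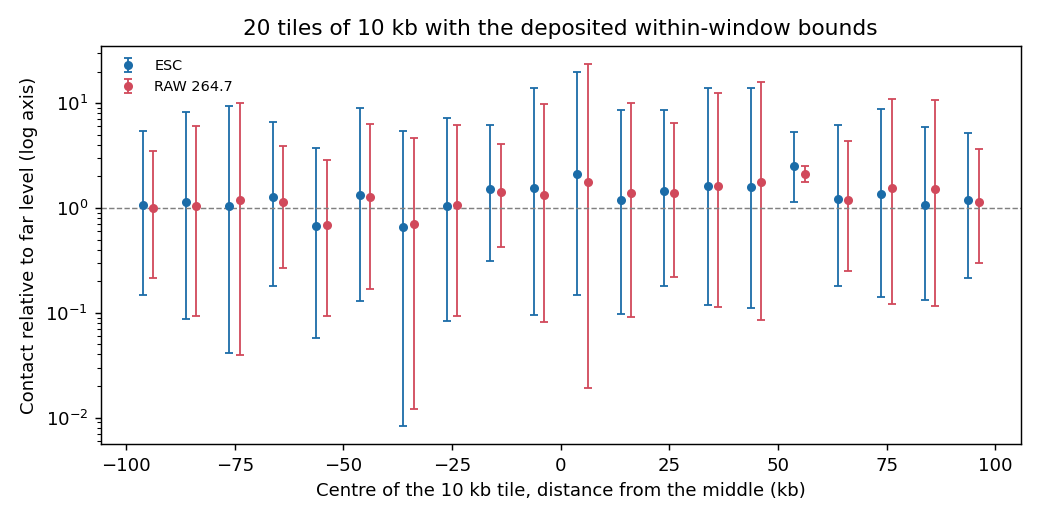
Contact relative to the far level (vertical log axis) in 20 tiles of 10 kb by the distance of the tile's centre from the middle in kb (horizontal axis), with 1 point per library and bars that show the deposited lower and upper bounds of the window, a spread among fragment ends and not an error between libraries. The bounds of ESC and RAW 264.7 cells overlap in all 20 tiles, and they are narrowest in the tile at 55 kb.

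After each library was divided by its own far level, the profiles of ESC and RAW 264.7 cells had nearly the same level and shape in this region. Across the 198 positions the Spearman coefficient was 0.896, a description of positions that share windows, fragment ends and viewpoint. The median log2 ratio of RAW 264.7 over ESC was 0.0014, with ESC higher at 97 of the 198 positions. At 500 to 900 kb, where each library's own median set the level, the median log2 ratio was 0.013. No coefficient for the rest of the profile is given here, so the likeness is not shown to be particular to this region. In 79.1% of the 182 windows of 2 kb with a value, both libraries held the same mix of 4 recurring values, described below. The part of this in the likeness was not tested, so the coefficient is not a measure of how alike the cell types are. The log2 ratio ran from -0.61 at the middle itself to 0.63 at 10 kb above it. Contact was at least 25% higher in RAW 264.7 cells than in ESC at 17 positions, or 8.59%, against 5.13% over the whole profile. ESC was higher by at least 25% at 8 positions, or 4.04%, against 1.51% over the whole profile. At 500 to 900 kb these shares were 5.11% and 2%. At 1.5-fold 2 positions, or 1.01%, were higher in RAW 264.7 cells, against 0.755% over the whole profile and 0.873% at 500 to 900 kb. In ESC 1 position, or 0.505%, was higher, against 0.0503% over the whole profile. That position was the middle, the only such position of the whole profile.

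Around the middle contact was higher in ESC. Without a break from 24 kb below to 6 kb above the middle, 31 positions, ESC had the higher value, with a median log2 ratio of -0.25. This was the longest stretch of 1 direction in the region, and such stretches were looked for after the values were seen. The median contact there was 1.56 times the far level in ESC against 1.35 times in RAW 264.7 cells. The longest run with ESC at least 25% higher lay at the middle and the 2 positions above it, 19207921 to 19209921, with a mean of 2.16 times in ESC against 1.60 times in RAW 264.7 cells and a mean log2 ratio of -0.44. Shorter runs lay 12 to 11 kb below the middle, 19195921 to 19196921, with a log2 ratio of -0.34, and 7 to 6 kb below it, 19200921 to 19201921, with -0.36.

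Above that stretch RAW 264.7 cells had runs with more contact. The longest run, 78 to 87 kb above the middle (19285921 to 19294921), covered 10 positions with a mean of 1.29 times the far level in ESC against 1.77 times in RAW 264.7 cells, a log2 ratio of 0.45. The next, 9 to 13 kb above the middle (19216921 to 19220921), covered 5 positions with 1.43 times in ESC against 1.97 times in RAW 264.7 cells, a log2 ratio of 0.47. The third covered 2 positions 48 and 49 kb above the middle with a log2 ratio of 0.48. Both positions lie inside the stretch of 2 kb windows listed at 0, from 48 to 58 kb, at its lower end. Each run compares 1 library with 1 library, and the runs hold 17 overlapping positions in 3 places.

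**Figure D3:**
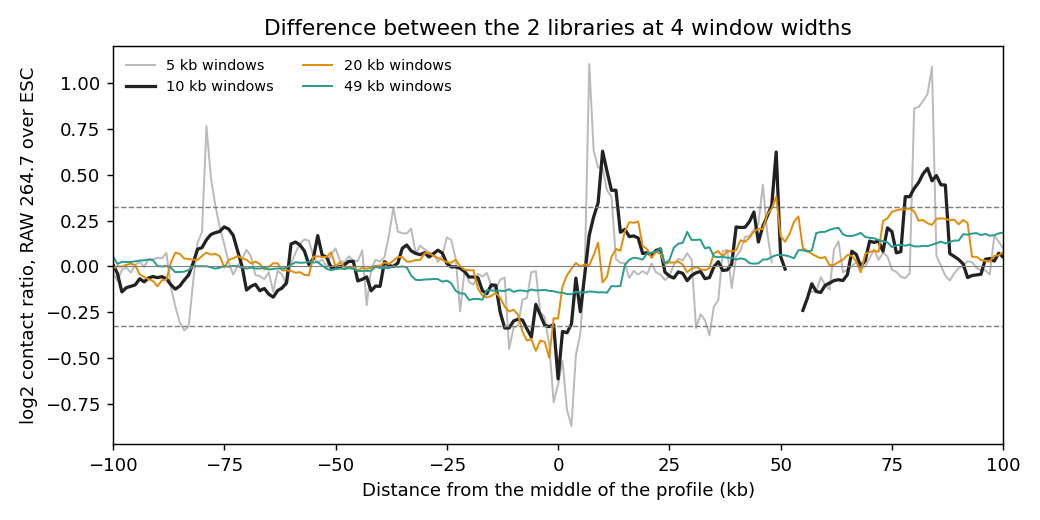
The log2 ratio of relative contact, RAW 264.7 over ESC (vertical axis), against distance from the middle in kb (horizontal axis) in windows of 5, 10, 20 and 49 kb, with dashed lines where 1 library is 25% higher. In 10 kb windows the line falls to -0.61 at the middle and rises to 0.63 at 10 kb; in 49 kb windows no position passes them.

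The size of these differences changed with window width, and the direction turned at some widths in 2 of the 6 runs named. The run 78 to 87 kb above the middle was higher in RAW 264.7 cells at all 48 widths, with a log2 ratio of 0.46 in 5 kb windows, 0.27 in 20 kb windows and 0.12 in 49 kb windows. The run at the middle was higher in ESC at all 48 widths, with -0.65, -0.15 and -0.14 at the same widths. The run 12 kb below the middle also kept its direction at all 48 widths. The run 9 to 13 kb above the middle was higher in RAW 264.7 cells at only 22 of 48 widths, with 0.38 in 5 kb windows, 0.03 in 20 kb windows and -0.13 in 49 kb windows. The run 7 to 6 kb below the middle was higher in ESC at 47 widths and turned to 0.018 in 3 kb windows. The run 48 to 49 kb above the middle was higher in RAW 264.7 cells at all 46 widths that gave it a value. Of the 20 tile centres, 3 kept 1 direction at every width with a value. RAW 264.7 cells were higher at those 45 and 85 kb above the middle, and ESC at the one 15 kb below it. Wide windows around these positions share much of the same DNA, so widths are not independent measurements.

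At the middle itself, whose distance from the viewpoint fragment the sources used here do not state, the level depended on the width. In ESC contact there was 1.29 times the far level in 2 kb windows, 2.78 times in 6 kb windows, 2.06 times in 10 kb windows and 1.5 times in 49 kb windows. The RAW 264.7 library had 1.31, 1.95, 1.35 and 1.36 times at the same widths. The medians over the region moved far less, from 1.19 to 1.26 times in ESC and from 1.17 to 1.36 times in RAW 264.7 cells over the 48 widths. The Spearman coefficient between the libraries was 0.937 in 2 kb windows, 0.879 in 20 kb windows and 0.903 in 49 kb windows. The mixes of recurring values that both libraries share enter these coefficients too, and their part was not tested.

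**Figure D4:**
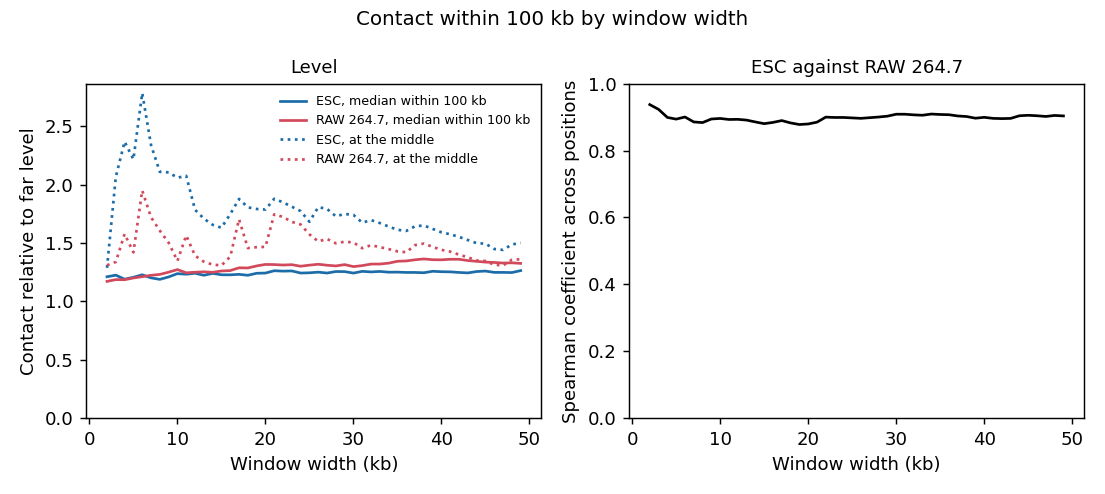
Left, contact relative to the far level (vertical axis) by window width in kb (horizontal axis), as the median over positions within 100 kb (solid) and at the middle (dotted) in ESC and RAW 264.7 cells; right, the Spearman coefficient between the 2 libraries across positions within 100 kb by window width. The medians stay between 1.17 and 1.36, while the value at the middle reaches 2.78 in ESC and 1.95 in RAW 264.7 cells in 6 kb windows.

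The 2 kb windows, the finest deposited, showed a few places of high contact. The highest in RAW 264.7 cells and the next to highest in ESC was 29 kb above the middle (19236921), with 7.49 times the far level in ESC against 7.93 times in RAW 264.7 cells. The highest in ESC lay 83 kb below the middle (19124921), with 7.58 times in ESC against 5.32 times in RAW 264.7 cells. These were the 2 highest 2 kb windows of the whole profile in both libraries. At 83 kb below the middle the high value was lost in wider windows, with 1.87 times in ESC against 1.49 times in RAW 264.7 cells at 5 kb, and 0.885 against 0.857 times, below the far level, at 10 kb. The window 44 kb above the middle (19251921), with 3.85 times in ESC against 4.55 times in RAW 264.7 cells, held rank 4 in both.

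Other high 2 kb windows differed between the cell types. The window 1 kb above the middle (19208921) had 4.09 times the far level in ESC against 1.52 times in RAW 264.7 cells, a log2 ratio of -1.43. The window 8 kb below the middle (19199921) had 2.67 times in ESC against 0.917 times in RAW 264.7 cells, a log2 ratio of -1.54, the lowest of the region. The window 83 kb above the middle (19290921) had 1.47 times in ESC against 5.27 times in RAW 264.7 cells, a log2 ratio of 1.84, the highest of the region. It was the third highest 2 kb window of the whole RAW 264.7 profile and lies in the run 78 to 87 kb above the middle. The deposited bounds of that window were 0.351 to 5.38 times in ESC and 0.737 to 33.1 times in RAW 264.7 cells, so the spread among its fragment ends overlapped between the libraries.

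Most 2 kb values were built from the same few numbers in both libraries. In each library the windows that held a single fragment end, known by bounds of exactly 0, took only 2 values, here called the low and the middle level. A top level was read from windows that paired the middle level with 1 other value, and 0 was the fourth level. In ESC the top, middle and low levels were 5.24, 1.12 and 0.0308 times the far level, and in RAW 264.7 cells 2.64, 1.86 and 0.0483 times. A mean on the log scale over whole numbers of ends at these 4 levels gave the value and the upper bound of 159 of the 182 windows with a value in ESC and of 158 in RAW 264.7 cells, to within 1e-08. In 79.1% of the 182 windows the mix of levels was the same in both libraries, against 76.3% of 1851 windows over the whole profile. In those windows the difference between ESC and RAW 264.7 cells comes only from each library's levels, offset and far level, which hold for the whole profile. What a level stands for, such as an end without reads or a value set to a ceiling, is not stated in the sources used here.

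The windows with the same mix had higher medians within 100 kb than far away. Their closeness between the libraries follows from how they were chosen and is not a result. Their log2 ratio had a median of 0.00024 and ran from -0.24 to 0.68 within 100 kb, with 11, or 7.64%, at least 25% higher in RAW 264.7 cells, against 12.7% of such windows over the whole profile. In ESC 0 were higher by that much, against 0.0708%. The 11 windows all had low contact, from 0.0166 to 0.367 times the far level in ESC and from 0.0258 to 0.588 times in RAW 264.7 cells. The median contact of all windows with the same mix was 1.11 times the far level in ESC against 1.12 times in RAW 264.7 cells within 100 kb. At 500 to 900 kb it was 0.977 and 0.960 times. Ends at the top level made up 36% of a mix on average within 100 kb and 32.6% at 500 to 900 kb. Ends at 0 made up 7.52% and 10.6%. Within 25 kb these shares were 39.2% at the top level and 3.53% at 0. The part of this layout in the higher contact near the middle was not tested.

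The other 38 windows, in 17 groups of neighbouring positions, had a different mix or held a value outside the 4 levels. They were set apart by values that can differ between the libraries, so their log2 ratios, from -1.54 to 1.84, only describe them. No mix matched in 23 windows in ESC, or 12.6%, against 12.3% over the whole profile. In RAW 264.7 cells this held for 24 windows, or 13.2%, against 10.2% over the whole profile. In either library it held for 30 windows, or 16.5%, against 15.9% over the whole profile, so the region was near the background in this count. Of the 17 groups, 9 had windows without a match in both libraries, among them those 83 kb below and 29 and 44 kb above the middle. ESC alone had them in 2 groups, 21 to 20 kb and 2 kb below the middle. RAW 264.7 cells alone had them in 3 groups, 10 to 11 kb, 78 to 79 kb and 82 to 83 kb above the middle. In the remaining 3 groups, 8 kb below and 13 to 14 and 33 to 34 kb above the middle, both libraries had only the 4 levels, in different mixes.

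At the middle the group of 6 windows from 0 to 5 kb matched no mix of the levels in 5 windows in ESC and in 3 in RAW 264.7 cells. In the windows 2 and 3 kb above the middle, a single end outside the levels, at 0.499 times the far level, accounted for the RAW 264.7 values, and both windows gave the same number for it. At 10 and 11 kb a single end at 0.131 times did so in RAW 264.7 cells. In the window 3 kb above the middle, 1 end at 4.84 times the far level accounted for the ESC value.

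**Figure D5:**
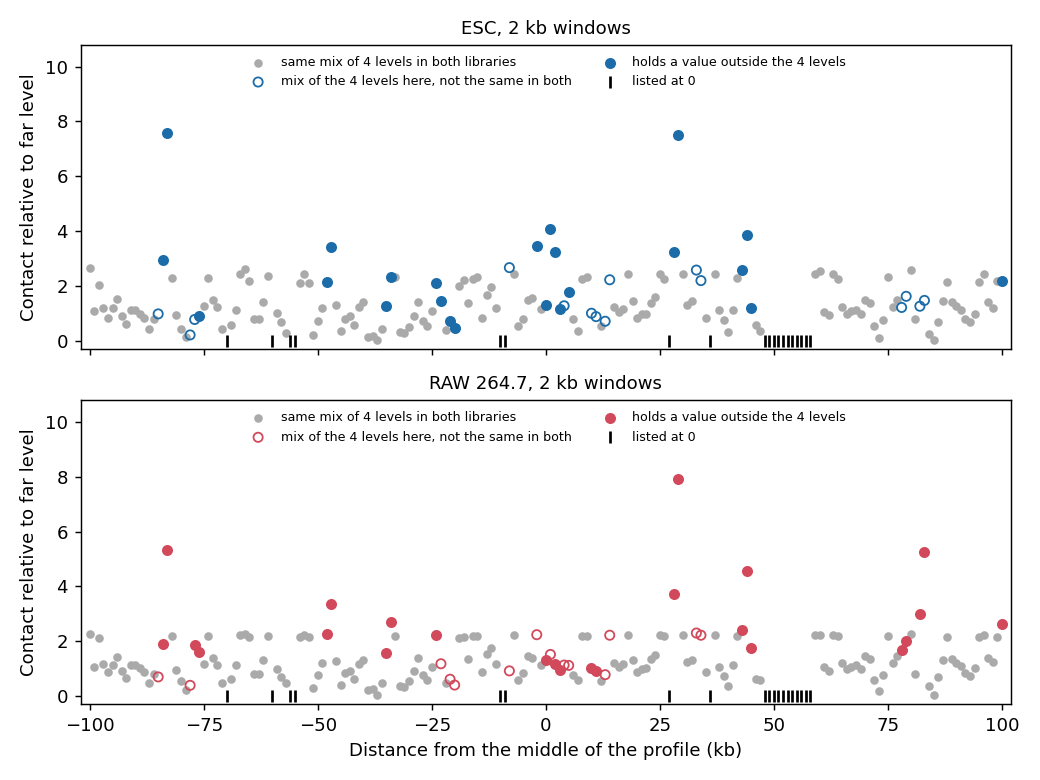
Contact in 2 kb windows relative to the far level (vertical axis) against distance from the middle in kb (horizontal axis), ESC above and RAW 264.7 cells below. Grey points are the windows with the same mix of 4 levels in both libraries, and open circles other windows that are a mix of the levels. Filled circles, labelled as holding a value outside the levels, are windows that matched no mix of them. Ticks are the 19 windows listed at 0. The highest windows, 29 kb above and 83 kb below the middle, stand out in both panels, and the one 83 kb above the middle only in RAW 264.7 cells.

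The 10 kb values did not always lie within the range of the 2 kb windows that span them. The deposited profiles are named as a truncated log mean, and the truncation rule is not stated in the sources used here. At 6 positions within 100 kb in RAW 264.7 cells, or 3.03%, the deposited 10 kb value was higher than all 5 of the 2 kb windows that span it, against 2.06% over the whole profile. In ESC this held at 2 positions, or 1.01%, against 0.655%. One was 10 kb above the middle in RAW 264.7 cells, the position of the largest log2 ratio, with 2.43 times the far level in the 10 kb window and at most 2.22 times in its 2 kb windows. At 51 and 55 kb above the middle, where this held in both libraries, the 10 kb windows were themselves mixes of the 4 levels. There only the 2 kb windows at 47 kb and at 59 kb, respectively, had a value to compare with. The cause of the higher 10 kb values was not tested. In 10 kb windows 7 positions matched a mix of the 4 levels, the same in both libraries. They included the ESC maximum at 55 kb and the minimum at 50 kb. Only mixes of up to 36 ends were searched, so 10 kb windows with more ends could not be matched. The 7 positions are therefore not a count of all 10 kb windows built from the levels.

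Set beside the 201 positions around the middle of the Il1a profile, 199 of which had a value, the Tnfaip3 region gave the following values. Il1a encodes the cytokine interleukin 1 alpha and was measured in ESC and in peritoneal macrophages given KLA for 1 h. Contact within 25 kb was 1.68 times that at 75 to 100 kb in ESC and 1.61 times in macrophages at Il1a, against 1.27 and 1.16 times at Tnfaip3. With distances from the highest 2 kb window the Tnfaip3 ratios were 1.44 in ESC and 1.48 in RAW 264.7 cells, and no such values are given for Il1a. The highest 10 kb window reached 4.00 times the far level in ESC at Il1a and 2.51 times at Tnfaip3. The Spearman coefficient between the cell types was 0.781 at Il1a and 0.896 at Tnfaip3. The median within 100 kb was 1.19 times in ESC at Il1a and 1.24 times at Tnfaip3. With 1 library each, these differences between viewpoints were not tested, and the macrophage cells differ too.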

How the data were processed

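The region is defined by position, but it and the rules for naming positions were chosen with earlier results of these data known. The genome build is mm9, with CASAVA 1.4 and Bowtie2 2.0.1 named as tools without their roles, per the submitters' processing notes. The deposited values are a smoothed contact signal relative to the highest window of each library, made by the authors for 48 widths; the lower bounds, kept as a score because some lie below 0, and the upper bounds were deposited beside it. Here each library was divided by its median at 500 to 900 kb, separately for each width, without a pseudocount; values of 0 were left out. Thresholds were 1.5 times the far level and 25% between libraries, higher over lower. Named positions were the middle, the 20 tiles, the 5 highest local maxima (10 kb apart, highest within 5 kb) and 2 lowest minima of each library, the 3 longest runs in each direction and the 5 highest 2 kb windows of each library. Mixes of up to 36 ends were searched, with the bounds of windows up to 20 kb wide. The steps were checked on simulated data. Versions were Python 3.11.15, SciPy 1.17.1, NumPy 2.4.6 and Matplotlib 3.10.9. No counting interval could be given, since the read depth is unknown.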

Additional observations from a re-analysis of the deposited data

How the results depend on the processing

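Of 158 alternative values, 40 moved, 1 reversed and the rest stayed close to the main value. Close means within 0.1 on the log2 scale, 1.1 times for levels and 2 percentage points for shares. It also means within 0.05 for the Spearman coefficient and 1.5 times for counts. Only the log2 ratios of the runs could be labelled as reversed. The median log2 ratio, 0.0014, changed sign in some alternatives, to -0.031 with values as deposited, and still counted as close. The cause of the moves was not tested, except where a threshold or a narrower region changes what is counted. Within 50 kb of the middle the ESC median was 1.39 times the far level, 33 positions reached 1.5 times in RAW 264.7 cells, 7 were 25% higher there and the higher side held 60.1% of RAW 264.7 contact. Taking the threshold as 25% above the far level gave 96 positions in ESC and 105 in RAW 264.7 cells, and 2 times gave 12 and 14. At 1.5-fold 2 positions were higher in RAW 264.7 cells and 1 in ESC, and at 2-fold 0 and 0. In 49 kb windows 30 ESC positions reached 1.5 times, and 0 were 25% higher in either library; in 20 kb windows 1 was higher in RAW 264.7 cells. In 5 kb windows 15 were higher in ESC, the higher side held 55.6% in RAW 264.7 cells and their contact within 25 kb over that at 75 to 100 kb was 1.03. With values as deposited 13 positions were higher in ESC, and with a pseudocount of 1% of the highest window 4. With distances from the highest 2 kb window the higher side held 50.5% in ESC and 53.5% in RAW 264.7 cells, and contact within 25 kb over that at 75 to 100 kb was 1.44 and 1.48, which turned the order of the libraries. Over positions whose 2 kb windows all held the same mix, an alternative chosen after seeing the data, the median was 1.11 in ESC against 1.13 in RAW 264.7 cells. The run at 19216921 reversed to -0.13 in 49 kb windows. No paired analysis was possible because each group had 1 library. Unknown depth and single libraries limit every difference.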
